A study of Mus musculus with 8 samples.

Results

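Ribosomes are built in the nucleolus. There, RNA polymerase I copies the ribosomal DNA into a long precursor RNA, small nucleolar ribonucleoprotein particles (snoRNPs) modify it, and a large cast of assembly factors folds, cleaves and trims it into the RNAs of the small and the large ribosomal subunit. T cells enlarge their nucleoli and raise this production when they are activated, and the transcription factor MYC is known to drive many of the genes. A set of 40 named genes of this machinery was followed here in mouse CD8+ T cells. The genes were chosen by name, as 4 subunits of RNA polymerase I, 4 box C/D and 5 box H/ACA snoRNP proteins, 5 abundant nucleolar proteins with several roles, 12 factors of the small-subunit processome and 10 factors of large-subunit assembly. All 40 were found by symbol among the 22520 genes and assembled transcripts of the deposited table.

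The cells were wild-type CD8+ T cells purified from mouse spleen and kept under anti-CD3 and anti-CD28 antibodies with IL-2 until day 6, which is a culture model of persistent T cell receptor stimulation. From day 3, 1 group of 4 libraries received 40 µM diisopropylamine dichloroacetate (DADA), an inhibitor of pyruvate dehydrogenase kinase, and the other group of 4 received an equal volume of its solvent DMSO. The labels give no strain or age and name the genotype only as control or model. The design text calls the 4 libraries of a group biological replicates without saying whether they came from separate mice. The p-values thus judge the group difference against the spread between libraries, which may not be the spread between mice. The question asked of the set was how the transcripts of ribosome production differed between DADA-treated and DMSO-treated cells.

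The values are FPKM, which count fragments relative to the length of the transcript and to the fragments mapped in the library. They carry no read counts. Low values were converted to fragments with annotated lengths at a series of trial depths. At the best depth of each library, only 41.5% to 48.7% of them lay within 0.1 of a whole number. An even spread gives 20% at 1 fixed depth, and more at the best of many. The reads behind a value are thus unknown, and only the spread between libraries sets the precision. Pearson correlations between libraries across genes were 0.993 to 0.995 within a group and 0.958 to 0.961 between groups. The 4 markers of CD8 T cells (*Cd3e*, *Cd3d*, *Cd8a*, *Cd8b1*) summed to between 458 and 468 FPKM under DMSO and between 556 and 577 FPKM under DADA. B cell, CD4 T cell, NK cell and erythroid markers each summed to at most 0.513 FPKM in any library, with *Hbb-bs* at 0 throughout. The 5 myeloid markers summed to between 3.44 and 3.96 FPKM under DMSO and between 5.11 and 5.59 FPKM under DADA, nearly all of it *Cd68*, while *Csf1r* and *Adgre1* were at 0 in every library. Their part in the results was not tested. In bulk RNA, fewer cells of a type and less RNA per cell cannot be told apart.

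Transcripts of the nucleolar machinery were lower in DADA-treated cells across nearly the whole set. Of the 40 genes, 37 were lower and 1, *Polr1c*, was higher at an adjusted p-value under 0.05 (limma, Benjamini-Hochberg over all 10666 genes tested), and *Imp3* and *Imp4* did not pass. Among all genes tested, 35.3% were called lower and 30.9% higher, so 37 of 40, or 92.5%, stands above the background for falling genes. All 40 members were expressed at 1 FPKM or more in every library, with means over the 8 libraries between 10.0 and 2001 FPKM. Among the 6267 tested genes whose mean was 10 FPKM or higher, 42.7% were called lower and 29.2% higher.

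Changes are given as log2FC, the mean log2(FPKM + 1) under DADA minus that under DMSO, with its standard error (SE). The median log2FC of the 40 genes was -0.45, beside -0.02 for all genes tested. The differences were moderate in size. The median member stood at 73.1% of its DMSO level, and the members ranged from 52.1% for *Wdr12* to 112% for *Polr1c*. A log2FC below -0.5 was found for 15 of the 40 genes, beside 6.05% of all genes tested. Replicate libraries were close to each other, with a median coefficient of variation of 3.14% with DMSO and 2.98% with DADA over the members. The 4 DADA libraries lay all below the 4 DMSO libraries for 34 members, where the background share of such genes is 32.2%, and all above for *Polr1c*, where it is 28.4%. For the other 5, *Polr1e*, *Nop58*, *Imp3*, *Imp4* and *Ddx10*, the groups overlapped. Added together, the 40 genes took 1.19%, 1.19%, 1.19% and 1.21% of all FPKM in the 4 DMSO libraries and 0.968%, 0.950%, 0.967% and 0.941% in the 4 DADA libraries. No DADA library reached the DMSO range.

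**Figure D1:**
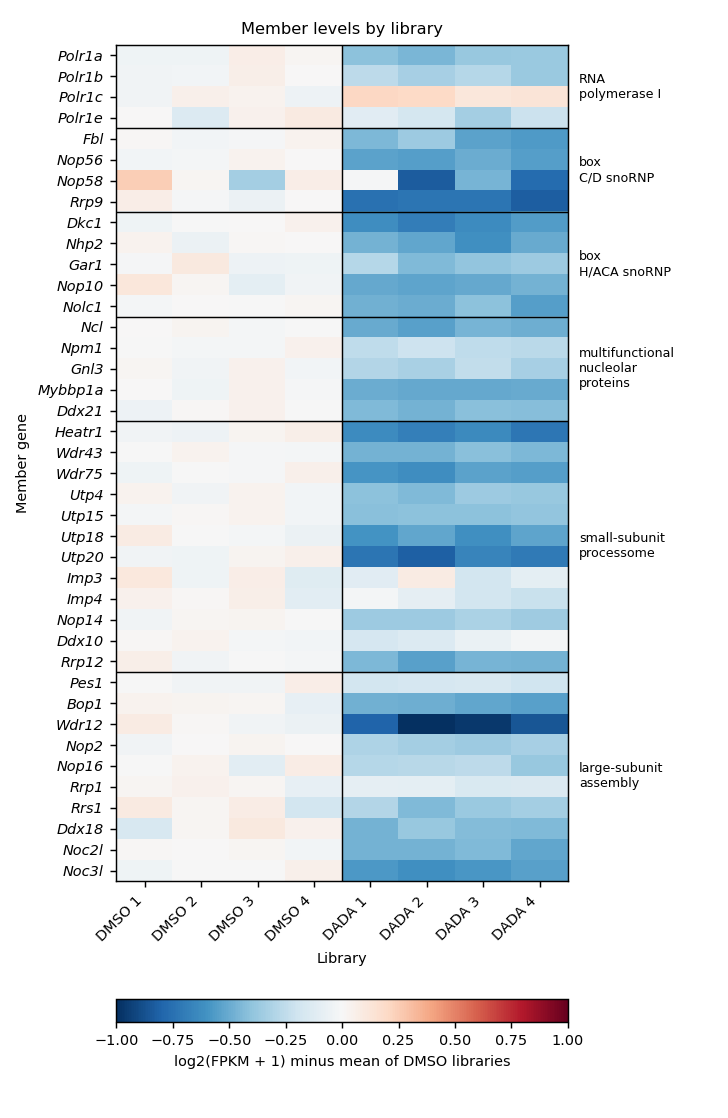
Each row is 1 of the 40 genes and each column 1 library. The colour is the log2(FPKM + 1) value minus the mean of the 4 DMSO libraries, from -1 (blue) to 1 (red), and lines separate the groups and the roles. The DADA columns are blue for nearly every row, with *Polr1c* as the red row, and *Nop58* is uneven within both groups.

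RNA polymerase I is the enzyme that transcribes ribosomal DNA, and its subunits did not move together. *Polr1a* (ENSMUSG00000049553) encodes the largest, catalytic subunit. It measured 18.4, 18.3, 19.9 and 19.2 FPKM under DMSO and 14.0, 13.5, 14.3 and 14.4 FPKM under DADA. The groups were well apart, at a log2FC of -0.41 (SE 0.0368, limma adjusted p = 5.09e-06). *Polr1b* (ENSMUSG00000027395), the second largest subunit and the partner of *Polr1a* in the active site, measured 27.4, 27.6, 29.3 and 28.1 FPKM under DMSO and 23.2, 22.0, 22.8 and 21.5 FPKM under DADA. It also fell, at a log2FC of -0.32 (SE 0.0341, limma adjusted p = 1.95e-05).

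*Polr1c* (ENSMUSG00000067148) encodes a subunit that RNA polymerase I shares with RNA polymerase III, the enzyme of tRNA and 5S rRNA genes. It was the most abundant of the 4 polymerase members, at 86.3, 91.8, 90.6 and 85.3 FPKM under DMSO and 102, 102, 95.6 and 96.9 FPKM under DADA. All 4 DADA libraries were above all 4 DMSO libraries, and the log2FC was 0.16 (SE 0.0331, limma adjusted p = 0.00163; two-sided exact permutation test, p = 0.0286, the smallest that 4 against 4 libraries can give). *Polr1e*, which helps the polymerase to stay on its template, was the lowest of the 40 genes, at 9.76 to 11.6 FPKM under DMSO and 8.31 to 9.93 FPKM under DADA. It passed the test at a log2FC of -0.21 (limma adjusted p = 0.0122), although 1 DADA library lay inside the DMSO range.

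The ratio of *Polr1c* to *Polr1a* was examined after these values were seen. It was 4.70, 5.01, 4.55 and 4.45 in the DMSO libraries and 7.32, 7.55, 6.68 and 6.74 in the DADA libraries. The log2 ratio was higher by 0.60 with DADA, given as a description with no test, since the pair was chosen for its opposite changes. The ratio compares 2 transcripts per length, and does not say that one of them stayed constant.

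Box C/D snoRNPs place methyl groups on the sugars of ribosomal RNA, and the particle that carries U3 RNA starts the cleavage of the precursor. *Nop56* (ENSMUSG00000027405), a scaffold of the particle, measured 304, 305, 317 and 311 FPKM under DMSO and 213, 211, 219 and 211 FPKM under DADA. The values within each group were nearly the same, and the log2FC was -0.53 (SE 0.0219, limma adjusted p = 1.73e-08). *Fbl* (ENSMUSG00000046865), the methyltransferase fibrillarin, measured 225, 219, 221 and 229 FPKM under DMSO and 163, 173, 154 and 150 FPKM under DADA. It fell by 0.48 on the log2 scale (limma adjusted p = 3.27e-06).

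*Rrp9* (ENSMUSG00000041506), which binds only the U3 particle, showed the largest fall of the snoRNP proteins. Its values were 55.6, 52.7, 50.9 and 53.1 FPKM under DMSO and 31.2, 31.7, 31.7 and 29.6 FPKM under DADA. The log2FC was -0.76 (SE 0.0338, limma adjusted p = 2.98e-08), and 1.19% of all genes tested had a lower one. *Nop58*, the partner of *Nop56* in the scaffold, was the most variable member. It ranged from 89.3 to 135 FPKM under DMSO and from 63.2 to 112 FPKM under DADA, with coefficients of variation of 16.4% and 28.0%. The groups overlapped, and its call (log2FC -0.52, limma adjusted p = 0.0256) no longer passed when DMSO 1, DMSO 2 or DMSO 4 was left out (adjusted p = 0.0707, 0.0511 and 0.0562) or when DADA 2 or DADA 4 was (0.0722 and 0.0703). *Snu13*, the protein of the C/D core that is not among the 40 genes, was named after its value was seen and had a log2FC of -0.57 (limma adjusted p = 4.19e-08).

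Box H/ACA snoRNPs convert uridine in ribosomal RNA to pseudouridine, and the same proteins protect the RNA of telomerase. All 5 members of this group fell, with a median log2FC of -0.51 and no overlap between the groups. The shares of all genes tested were 35.3% called lower and 32.2% with all DADA libraries below all DMSO libraries. *Dkc1* (ENSMUSG00000031403), the pseudouridine synthase dyskerin, measured 76.8, 78.9, 79.5 and 81.6 FPKM under DMSO and 51.0, 48.7, 50.8 and 53.4 FPKM under DADA. Its log2FC of -0.63 (SE 0.0312, limma adjusted p = 6.69e-08) was the largest of the group. *Nhp2* (ENSMUSG00000001056), a core protein that binds the guide RNA, measured 115, 107, 113 and 112 FPKM under DMSO and 80.5, 77.6, 72.7 and 78.5 FPKM under DADA. It fell by 0.53 on the log2 scale (limma adjusted p = 4.30e-07).

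*Nolc1* (ENSMUSG00000015176), a chaperone that accompanies snoRNPs in the nucleolus and Cajal bodies, measured 91.2, 92.4, 92.1 and 93.4 FPKM under DMSO and 66.0, 65.1, 69.1 and 62.8 FPKM under DADA. Its log2FC was -0.48 (limma adjusted p = 2.32e-07). The small core proteins *Nop10* and *Gar1* had log2FC values of -0.51 and -0.37. The 4 core proteins thus spanned log2FC values from -0.63 to -0.37.

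The abundant nucleolar proteins hold much of the RNA of the set. *Npm1* (ENSMUSG00000057113), nucleophosmin, forms the outer layer of the nucleolus and acts as a histone and ribosome chaperone. It measured 2166, 2142, 2141 and 2229 FPKM under DMSO and 1817, 1884, 1823 and 1802 FPKM under DADA. The fall was well outside the replicate spread but among the smaller ones, at a log2FC of -0.24 (SE 0.0237, limma adjusted p = 8.69e-06). *Npm1* made up 39.7% to 40.8% of the summed FPKM of the 40 genes with DMSO and 42.5% to 44.1% with DADA. The gene is known to have processed pseudogenes, so its level is uncertain where fragments were shared with such copies.

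*Ncl* (ENSMUSG00000026234), nucleolin, which binds the precursor RNA and the chromatin of ribosomal DNA, measured 387, 394, 382 and 385 FPKM under DMSO and 273, 265, 280 and 275 FPKM under DADA. Its log2FC was -0.50 (SE 0.0225, limma adjusted p = 3.14e-08). *Mybbp1a* (ENSMUSG00000040463), a nucleolar protein that represses transcription factors and takes part in precursor processing, measured 170, 165, 175 and 168 FPKM under DMSO and 120, 119, 118 and 119 FPKM under DADA. It fell by 0.51 on the log2 scale (limma adjusted p = 2.49e-08). *Ddx21*, an RNA helicase, and *Gnl3*, the GTP-binding protein nucleostemin, also fell, with log2FC values of -0.44 and -0.30.

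The small-subunit processome is the large particle that assembles on the 5′ part of the precursor and holds U3 RNA. Of its 12 members, 10 fell, none rose and 2 did not pass the test, with a median log2FC of -0.43. Among all genes tested, 35.3% were called lower and 30.9% higher. *Utp20* (ENSMUSG00000004356), a very large repeat protein of the particle, measured 18.3, 18.3, 19.2 and 19.5 FPKM under DMSO and 10.9, 10.2, 11.5 and 11.1 FPKM under DADA. Its log2FC was -0.73 (SE 0.0416, limma adjusted p = 1.70e-07). *Heatr1* (ENSMUSG00000050244), a subunit of the complex that binds the precursor first and is also needed for its transcription, measured 41.4, 41.0, 43.3 and 44.3 FPKM under DMSO and 27.1, 26.1, 27.0 and 25.3 FPKM under DADA. Its groups were equally free of overlap, and its log2FC was -0.67 (SE 0.0339, limma adjusted p = 7.40e-08).

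The other subunits of that first complex in the set had smaller changes, and their difference from *Heatr1* was not tested. *Wdr43* (ENSMUSG00000041057) was the most abundant processome member, at 102, 105, 101 and 101 FPKM under DMSO and 73.3, 73.3, 76.2 and 74.6 FPKM under DADA, or a log2FC of -0.46 (limma adjusted p = 5.91e-08). *Utp4* (ENSMUSG00000041438) measured 84.8, 80.7, 84.9 and 81.1 FPKM under DMSO and 62.3, 60.9, 64.1 and 63.5 FPKM under DADA, or a log2FC of -0.40 (limma adjusted p = 6.40e-07). *Wdr75* and *Utp15*, of the same complex, had log2FC values of -0.57 and -0.41. *Utp18*, of a second scaffold complex, had -0.56, *Rrp12*, which follows the particle to its export, -0.48, and *Nop14*, another assembly factor, -0.35.

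Members of the processome that moved little were *Imp3*, *Imp4* and *Ddx10*. IMP3 and IMP4 form 1 complex with MPP10 on the U3 particle. *Imp3* ranged from 42.1 to 49.3 FPKM under DMSO and from 40.2 to 48.7 FPKM under DADA, at a log2FC of -0.08 (limma adjusted p = 0.309). *Imp4* ranged from 19.3 to 21.8 FPKM under DMSO and from 17.8 to 20.6 FPKM under DADA. Its log2FC was -0.13 (limma adjusted p = 0.0502). It passed the threshold without DMSO 4 or DADA 1 (limma adjusted p = 0.0167 and 0.0172) and with the replicate number as a block (0.0219). It also passed with a filter at a mean of 5 FPKM (limma adjusted p = 0.046) and without assembled transcripts (0.0477). The 2 groups overlapped for both genes. *Mphosph10*, the gene of MPP10, is outside the set of 40 and was named after its value was seen. It had a log2FC of -0.31 (limma adjusted p = 3.80e-05), and the log2 ratio of *Imp3* to *Mphosph10*, also examined then and not tested, was higher by 0.24 with DADA. *Ddx10*, a helicase, lay between 47.2 and 49.4 FPKM under DMSO and between 42.8 and 47.4 FPKM under DADA. Its call (log2FC -0.10, limma adjusted p = 0.0282) did not survive leaving out DMSO 1 or DMSO 2 (adjusted p = 0.0580 and 0.0754) or leaving out DADA 1 or DADA 2 (0.0789 and 0.0737), nor a fit with the replicate number as a block (adjusted p = 0.0587) or under TPM and quantile scaling (adjusted p = 0.125 and 0.138).

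Large-subunit assembly held the largest change of the set. All 10 members fell, with a median log2FC of -0.40 and no overlap between the groups for any of them. Among all genes tested, 35.3% were called lower and 32.2% had all DADA libraries below all DMSO libraries. *Wdr12* (ENSMUSG00000026019) encodes a subunit of the PeBoW complex, which PES1, BOP1 and WDR12 form and which is needed to cut the precursor of 28S and 5.8S RNA. It measured 33.3, 31.7, 30.7 and 30.2 FPKM under DMSO and 17.6, 15.3, 15.7 and 16.9 FPKM under DADA. Its log2FC was -0.90 (SE 0.0486, limma adjusted p = 1.14e-07), and 0.647% of all genes tested had a lower one.

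The other 2 genes of the PeBoW complex are given by library because their values were seen to differ from those of *Wdr12*. *Bop1* (ENSMUSG00000022557) measured 51.0, 50.5, 50.3 and 46.9 FPKM under DMSO and 35.3, 35.2, 34.4 and 33.9 FPKM under DADA, or a log2FC of -0.51 (limma adjusted p = 3.06e-07). *Pes1* (ENSMUSG00000020430) measured 62.7, 61.4, 61.4 and 65.8 FPKM under DMSO and 55.3, 55.9, 56.0 and 54.5 FPKM under DADA, or a log2FC of -0.18 (SE 0.0271, limma adjusted p = 2.27e-04). The ratio of *Wdr12* to *Pes1*, examined after these values were seen, was 0.531, 0.516, 0.499 and 0.459 with DMSO and 0.319, 0.274, 0.279 and 0.310 with DADA. Its log2 value differed by -0.76 between DADA and DMSO, and that of *Bop1* to *Pes1* by -0.34. Both are descriptions with no test, since the pairs were chosen for these values.

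Among the other large-subunit factors, *Noc3l* (ENSMUSG00000024999) had the second largest change. It measured 25.1, 25.8, 25.8 and 26.9 FPKM under DMSO and 17.1, 16.6, 17.0 and 17.4 FPKM under DADA, or a log2FC of -0.58 (limma adjusted p = 9.20e-08). Its partner *Noc2l* (ENSMUSG00000095567) measured 144, 143, 144 and 140 FPKM under DMSO and 103, 103, 105 and 99.2 FPKM under DADA, or a log2FC of -0.48 (limma adjusted p = 5.25e-08). *Rrp1* (ENSMUSG00000061032), an early large-subunit factor, was nearly as abundant as *Noc2l* but had the smallest change of the 10, from 125, 127, 125 and 116 FPKM under DMSO to 116, 115, 111 and 112 FPKM under DADA. Its groups were only just apart, at a log2FC of -0.12 (limma adjusted p = 0.00554). The helicase *Ddx18*, the factors *Rrs1* and *Nop16*, and *Nop2*, which methylates a cytosine of 28S RNA, had log2FC values of -0.43, -0.36, -0.30 and -0.34.

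**Figure D2:**
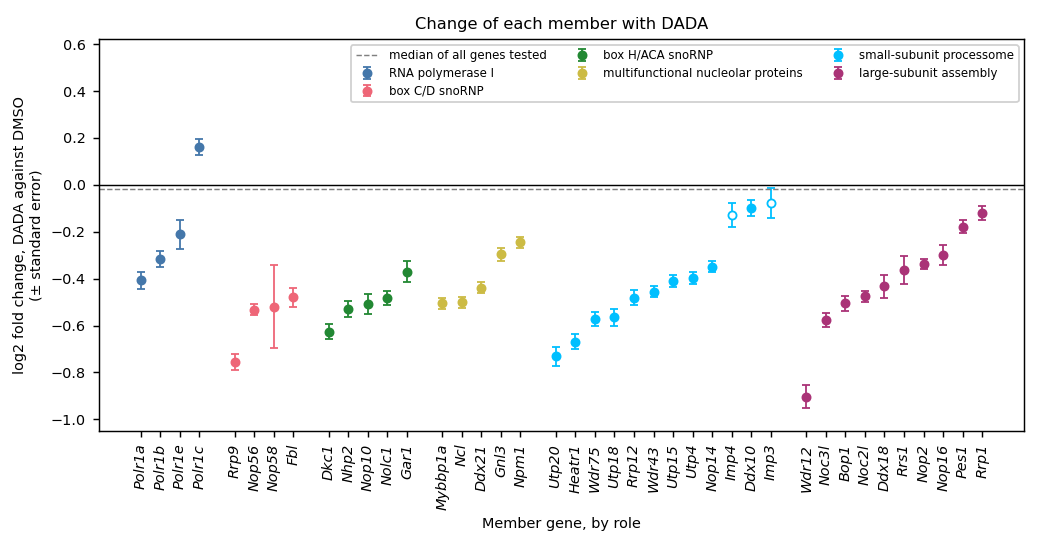
Points are the log2FC values of the 40 genes with DADA against DMSO, ordered within each role, and bars are standard errors from limma (n = 4 per group). Open points did not pass an adjusted p-value of 0.05, and the dashed line is the median of all genes tested, -0.02. *Wdr12* is lowest at -0.90 and *Polr1c* is the only point above 0.

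Level and length were set against the size of the change. Across the 40 genes, Spearman's rho between the mean FPKM and the log2FC was 0.06, and between the length of the longest annotated transcript and the log2FC it was -0.37, given as descriptions across genes of the same libraries. Exons of 11 members overlap a protein-coding gene on the other strand in GENCODE M21, among them *Wdr12*, *Rrp9*, *Heatr1*, *Dkc1*, *Nop56* and *Bop1*, and whether the counting used strand is not given in the sources used here. Of the 23 members with no overlapping exon of any gene, 21 were called lower, beside 35.3% of all genes tested. The median log2FC of the 23 was -0.40. That of the 11 with an opposite-strand coding gene was lower, at -0.53, and the part of the overlap in this was not tested.

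The fall was also found in genes of the same pathway outside the 40. A list of 105 further genes covered the rest of RNA polymerase I and its factors, the small-subunit factors and the large-subunit factors, and all 105 passed the filter. Of these, 85 (81.0%) were called lower, 8 (7.62%) higher and 12 did not pass, with a median log2FC of -0.28. The shares of all genes tested were 35.3% lower and 30.9% higher. Like the 40 genes, the list was chosen with earlier results of these data known. The small-subunit list, which also held the snoRNP genes *Snu13* and *Naf1*, had 35 of 39 (89.7%) lower and none higher. Both genes are named here only for their place in the list. Large-subunit factors had 40 of 48 (83.3%) lower and 4 (8.33%) higher. *Pno1*, which works in late small-subunit assembly, averaged 83.0 ± 2.42 FPKM under DMSO and 42.5 ± 1.31 under DADA (SD, n = 4), or a log2FC of -0.95 (limma adjusted p = 2.43e-09). The next largest log2FC of the small-subunit list was that of *Nol10* (-0.69), and the largest falls of the large-subunit list were those of *Rrp15* (-0.73) and the helicase *Ddx27* (-0.55). The 2 large-subunit factors with the largest rises were *Nol12* (0.36) and the helicase *Ddx24* (0.29).

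**Figure D3:**
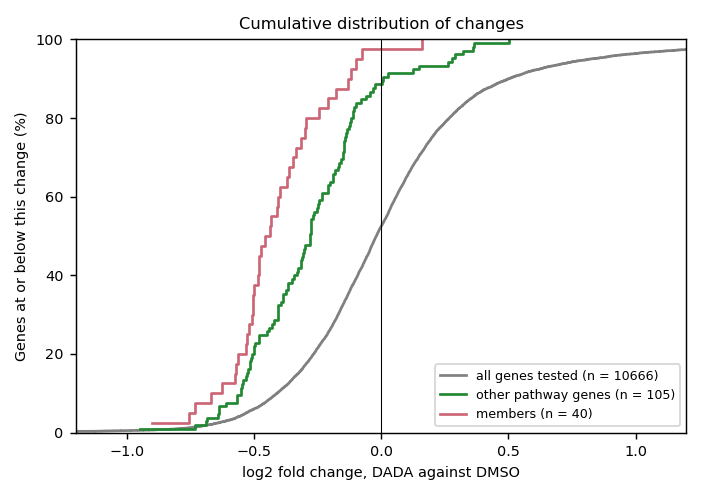
Lines give the percentage of genes with a log2FC at or below the value on the x axis, for the 10666 genes tested, the 105 other pathway genes and the 40 members. Both pathway lines lie left of the line of all genes, with medians of -0.28 and -0.45 beside -0.02.

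The polymerase I list was the most mixed. Of its 18 genes, which include *Myc* as a regulator, 10 were lower, 4 higher and 4 did not pass, with a median log2FC of -0.14. That is 55.6% lower and 22.2% higher, beside 35.3% and 30.9% of all genes tested. *Polr1f*, a stalk subunit found only in polymerase I, was lower, at 17.0 ± 0.207 FPKM under DMSO and 12.9 ± 0.411 FPKM under DADA (SD, n = 4), or a log2FC of -0.37 (limma adjusted p = 3.74e-06). *Ubtf*, the factor that opens the chromatin of ribosomal DNA, fell from 70.5 ± 1.43 to 55.3 ± 2.73 FPKM, or a log2FC of -0.35. *Taf1d*, a subunit of the promoter selectivity factor, rose from 103 ± 1.65 to 133 ± 1.79 FPKM, or a log2FC of 0.36 (limma adjusted p = 1.78e-07).

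*Polr1d* is the partner of *Polr1c* in both polymerase I and polymerase III, and was named after its value was seen. It measured 75.8, 81.5, 82.4 and 70.8 FPKM under DMSO and 104, 87.2, 93.4 and 92.4 FPKM under DADA. All DADA values were above all DMSO values, as for *Polr1c*, at a log2FC of 0.28 (SE 0.0599, limma adjusted p = 0.00226). Other subunits in the list that are shared between polymerases did not rise, and were also named after their values were seen. *Polr2f* (-0.28), *Polr2l* (-0.30) and *Polr2e* (-0.13) were lower (log2FC, limma adjusted p-value under 0.05). The groups overlapped for *Polr2e*. *Polr2h* (-0.11) and *Polr2k* (-0.11) did not pass.

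*Myc* encodes the factor that is known to activate many of these genes, and its transcript was higher in the cells in which most of theirs were lower. It measured 124, 126, 120 and 116 FPKM under DMSO and 167, 172, 173 and 177 FPKM under DADA. Every DADA library was above every DMSO library, at a log2FC of 0.50 (SE 0.0294, limma adjusted p = 2.13e-07), and it lay between 0.48 and 0.54 under the alternatives tried. These are transcript levels, and MYC protein was not measured in these libraries.

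**Figure D4:**
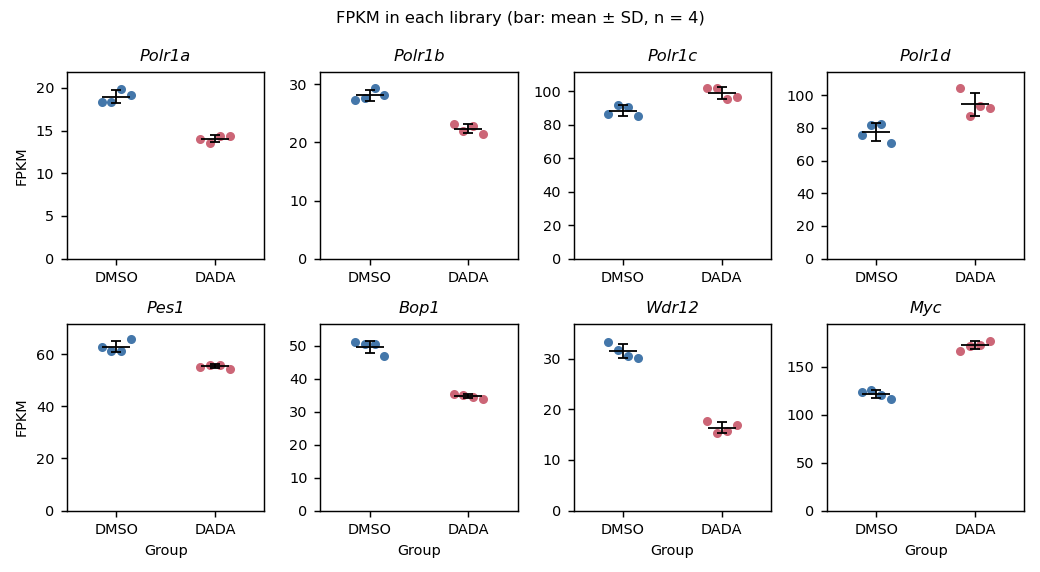
Points are FPKM in each library for DMSO (blue) and DADA (red), and bars are the mean ± SD of 4 libraries. *Polr1a* and *Polr1b* are lower and *Polr1c* and *Polr1d* higher with DADA. The 3 PeBoW genes *Pes1*, *Bop1* and *Wdr12* are lower, at log2FC values of -0.18, -0.51 and -0.90. *Myc* is higher in all 4 DADA libraries.

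MYC with its partner MAX binds the E-box CACGTG, so the promoters of the members were searched for these letters. RefSeq start sites on GRCm38.p6 gave windows of 250 bases before to 50 bases after the start for 35 of the 40 genes. The letters CACGTG, which read the same on both strands, occurred in the window of 8 of these 35 genes (22.9%). They also occurred in 17 of 83 other pathway genes with a window (20.5%). Among tested genes with a window the count was 991 of 8216 (12.1%), and the share of all genes with a window was 8.09%. The 8 sites are shown because they belong to members of several roles, with the E-box in capitals and 30 bases in all, each read 5′ to 3′ on the strand of the gene:
*Imp4*: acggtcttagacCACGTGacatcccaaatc
*Nop2*: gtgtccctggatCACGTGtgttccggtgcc
*Utp18*: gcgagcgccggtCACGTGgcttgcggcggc
*Pes1*: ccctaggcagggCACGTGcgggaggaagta
*Utp4*: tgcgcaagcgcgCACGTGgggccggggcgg
*Wdr43*: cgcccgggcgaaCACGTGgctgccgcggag
*Utp20*: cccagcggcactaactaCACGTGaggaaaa
*Mybbp1a*: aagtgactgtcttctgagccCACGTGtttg

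The E-box began at -121 in *Imp4* (chr1:34439696-34439725, plus strand), at -60 in *Nop2* (chr6:125131811-125131840, plus strand) and at -20 in *Utp18* (chr11:93885769-93885798, minus strand), counted from the start site. In the other 5 it began in the transcribed part, at 3 in *Pes1* (chr11:3963965-3963994, plus strand), 16 in *Utp4* (chr8:106893643-106893672, plus strand), 18 in *Wdr43* (chr17:71616220-71616249, plus strand), 38 in *Utp20* (chr10:88826765-88826794, minus strand) and 41 in *Mybbp1a* (chr11:72441347-72441376, plus strand). Their log2FC values ran from -0.73 in *Utp20* to -0.13 in *Imp4*, and *Wdr12*, *Rrp9* and *Heatr1*, which with *Utp20* had the largest falls of the 40, had no CACGTG in their windows. A match is a description of the letters and not of binding.

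The ETS core CCGGAA and the GC box GGGCGG, each on either strand, were searched in the same windows. CCGGAA was in 15 of the 35 genes (42.9%), beside 34.9% of tested genes and 66.3% of the other pathway genes, and GGGCGG in 26 (74.3%), beside 70.7% of tested genes. *Rrp9*, the snoRNP protein with the largest fall, is shown from -250 to -41 (chr9:106477059-106477268, plus strand, GRCm38.p6) as a window with no CACGTG, with its CCGGAA at -214 in capitals. *Polr1c*, which rose, is shown for the 30 bases around its CCGGAA at -42 (chr17:46248070-46248099, minus strand, GRCm38.p6).
*Rrp9*: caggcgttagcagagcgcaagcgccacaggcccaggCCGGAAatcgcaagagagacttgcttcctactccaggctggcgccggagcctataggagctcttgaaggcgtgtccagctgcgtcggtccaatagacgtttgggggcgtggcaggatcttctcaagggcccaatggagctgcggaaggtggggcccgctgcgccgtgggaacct
*Polr1c*: cccacttgacgtCCGGAAgtgaaggacgtg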

How the data were processed

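The 8 libraries of bulk RNA-seq were grouped by their titles into 4 DMSO and 4 DADA libraries. The table deposited by the authors holds FPKM, with no read counts, so depth is unknown and no count model was used. The submitters' processing notes name HISAT2 2.0.5, StringTie 1.3.3 and the builds GRCm39 and GRCh38, without roles. Annotation and strand setting are not given in the sources used here, and the labels and the methods name different library kits. The reference used here was GRCm38 (GENCODE M21), so coordinates are given only for RefSeq promoter windows of that build.

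Genes with at least 1 FPKM in 4 or more libraries (10666) were fitted as log2(FPKM + 1) by limma 3.58.1 in R 4.3.3, with trended eBayes variances and p-values adjusted by Benjamini-Hochberg, and called at an adjusted p-value under 0.05. The exact permutation test (two-sided, 70 assignments) ran with numpy 2.4.6 under Python 3.11.15, and Spearman's rho came from scipy 1.17.1. The fit was tested on simulated data first. Members and lists were chosen with earlier results of these data known. Values per library are given for the 2 most abundant and 2 most changed genes of each role and for any gene called against the majority, and beyond this rule for *Bop1*, *Pes1* and *Polr1d*, chosen after their values were seen. Of the other pathway genes, *Myc* and the 2 most changed in each direction of each list are named, and genes outside this rule are marked as such. Some items are not reported here.

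Alternatives were a pseudocount of 0.1, no filter, a mean of at least 5 FPKM, TPM, median-ratio and quantile scaling, no trend, the replicate number as a block and each library left out. A fit without assembled transcripts was an addition made with the data in view.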

Additional observations from a re-analysis of the deposited data

Results flagged for a closer look

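Each of the 40 genes was checked for a stray library in both groups of 4, which makes 80 checks, and chance marks about 1 in 20. A single case was found. *Bop1* measured 46.9 FPKM in DMSO 4, while DMSO 1 to 3 lay between 50.3 and 51.0 FPKM, so that 0.850 of the whole spread was the distance of this library from its nearest neighbour. The 4 DADA libraries, at 33.9 to 35.3 FPKM, were all below it.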

How the results depend on the processing

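Over the alternatives tried, 35 to 38 members were called lower and 1, *Polr1c*, higher. Leaving out each library in turn gave 35 to 37 lower and 1 higher, a median log2FC between -0.46 and -0.44, and 81 to 85 lower and 8 to 9 higher among the other pathway genes. The median of the members moved from -0.45 to -0.42 with TPM and to -0.41 with quantile scaling. TPM divides each value by the summed FPKM of its library, which was 450473 to 456939 with DMSO and 438299 to 449480 with DADA. The cause of these moves was not tested. The alternatives were run for the 40 members and 13 other pathway genes, and none of these 53 changed sign. The *Polr2* genes, the polymerase III genes and *Maf1* were not run. The calls of *Nop58*, *Ddx10* and *Imp4* depended on the setting, and *Nop58* was also lost with no filter (limma adjusted p = 0.0572). Depth is unknown, so no limit on low values could be set.

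The replicate numbers did not pair the libraries. Deviations from the group means correlated at 0.095, -0.12, -0.088 and 0.075 between libraries of the same number, and none of the 4 DMSO libraries correlated best with its own number. With the replicate number as a block, 37 members were lower, 1 was higher and their median was -0.45, with 84 lower and 8 higher among the other pathway genes.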

Other observations

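*Polr1c* and *Polr1d* also belong to RNA polymerase III, so further subunits of that enzyme were read once these values were known. *Polr3b* (-0.14), *Polr3e* (-0.31) and *Crcp* (-0.12) were lower, *Polr3c* (0.08) and *Polr3gl* (0.23) were higher, and *Polr3a*, *Polr3d*, *Polr3f*, *Polr3g* and *Polr3k* did not pass (log2FC, limma adjusted p-value under 0.05). The groups overlapped for *Polr3gl*. *Maf1*, a repressor of polymerase III, averaged 29.9 ± 1.53 FPKM under DMSO and 42.5 ± 2.29 FPKM under DADA (SD, n = 4). All 4 DADA libraries were above the DMSO range, and its log2FC was 0.49 (limma adjusted p = 7.09e-06).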
